A study of Mus musculus with 123 samples.

Results

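The 5 genes described here are Calca and Calcb, which encode calcitonin gene-related peptide (CGRP) in its alpha and beta forms, Tac1, which encodes substance P, and Calcrl and Ramp1, which encode the 2 chains of the CGRP receptor. They were chosen by symbol from the 24134 genes of the tables, and all 5 were listed. No limit on a measured value was used, but earlier results of these data were known when they were chosen. Expression was measured by RNA sequencing in dorsal root ganglion (DRG) neurons of 2-month-old mice after transection of the right sciatic nerve at mid thigh (SNT), with neurons of the opposite, uncut side of the body as the control. The day-3 groups were 41 SNT-side and 18 control-side single neurons from F1 mice of a CAST/Eij father and a C57BL/6 mother, female by the study's methods, and 3 libraries per side made from pooled neurons. The day-7 groups were 33 SNT-side and 14 control-side single neurons from C57BL/6 mice of both sexes. Ganglia are labelled L5 at day 3 and L3 to L5 at day 7. Neurons were picked by hand after dissociation, so a group is a set of chosen cells and not a sample of the whole ganglion, and the control side comes from operated and not from naive animals.

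CGRP and substance P are the classical peptides of peptidergic nociceptors, the sensory neurons that signal painful heat and tissue damage. Both peptides are cut from larger precursors, stored in dense-core vesicles and released from the spinal terminals and from the endings in skin and viscera, where CGRP widens blood vessels and substance P makes small vessels leaky. CGRP acts through CALCRL, a G protein-coupled receptor that binds CGRP when it is paired with the single-pass protein RAMP1, whereas substance P acts through the neurokinin receptor encoded by Tacr1.

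Library totals were 563462 to 2003817 counts for pooled neurons and 261351 to 1849130 for the 106 cells kept by the authors. All values are expected counts scaled to a sum of 1000000 per library (CPM), and a gene was called detected in a cell above 10 CPM. Neuronal markers summed to at least 5452 CPM in every kept cell, so the label of neuron held. Transcripts of satellite glia and Schwann cells were present throughout, at 507 to 14367 CPM for 8 genes summed. Because the labels tie no cell to an animal, a side at a given day counts as 1 sample, SDs are spreads over cells, and no test was made between sides in single cells. Day 3 and day 7 also differed in mouse strain and read length and cannot be told apart from these.

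Calca and Calcb lie side by side on chromosome 7 and have closely similar coding sequence, which bears on how far their reads can be separated. The CGRP-coding stretches of 111 bases, read from the longest GENCODE transcripts of Calca (994 bases) and Calcb (962 bases), are shown here with the bases that differ between them in capitals.
Calca CGRP alpha: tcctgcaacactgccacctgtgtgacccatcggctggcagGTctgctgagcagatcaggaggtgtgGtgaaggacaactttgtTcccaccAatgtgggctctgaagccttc
Calcb CGRP beta: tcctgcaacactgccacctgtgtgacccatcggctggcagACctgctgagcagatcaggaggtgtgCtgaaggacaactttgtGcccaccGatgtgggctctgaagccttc
The stretches differed at 5 bases (95.5% identity), and these differences changed 3 of the 37 residues of the peptide. The longest run without a difference was 40 bases. Over the whole transcripts, 12 of the 1678 windows of 50 bases in Calca were also found in Calcb, and no window of 75 bases was shared. A read of the day-3 length could therefore come from either gene at 0.715% of these Calca windows, although the authors' program also divides reads with mismatches between the genes. Gene-level values also do not separate the CGRP transcript of Calca from its calcitonin transcript, which is spliced to another exon.

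The substance P-coding stretch of Tac1 on chromosome 6 (33 bases, from a GENCODE transcript of 980 bases) is shown with the last 3 codons in capitals. They encode the carboxy-terminal end of the peptide, which tachykinins share.
Tac1 substance P: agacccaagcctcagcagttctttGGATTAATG
A promoter sequence (RefSeq, GRCm38.p6) was listed for 4 of the 5 genes. Calcb had no entry. The stretches of the Calca and Tac1 promoters that hold a shared 8-base word, TGACGCAA in either orientation, are shown with that word in capitals. Both stretches are upstream of the listed start and overlap no annotated exon.
Calca promoter, chr7:114636358-114636477, minus strand: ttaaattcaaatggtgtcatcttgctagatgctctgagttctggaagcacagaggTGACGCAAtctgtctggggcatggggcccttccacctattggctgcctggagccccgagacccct
Tac1 promoter, chr6:7554811-7554878, plus strand: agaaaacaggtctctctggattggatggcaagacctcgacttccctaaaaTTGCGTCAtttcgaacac
The word starts 65 bases before the Calca start and 200 bases before the Tac1 start, and it was picked out after these sequences were read. It occurred on either strand in 0.490% of the 32851 promoter windows of 300 bases. The cyclic AMP response element TGACGTCA, found in 1.79% of windows, and the AP-1 word TGANTCA, found in 7.81%, were in none of the 4 windows. These matches describe the letters of the windows and nothing about binding.

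Pooled neurons gave the one comparison with a test across all genes. In the pools at day 3 Tac1 and Calcb were lower on the SNT side, Tac1 by the larger ratio, and Calca differed in the same direction by less than the limit on size. The quasi-likelihood test of edgeR was used, with p adjusted by Benjamini-Hochberg over all genes, and a gene was counted as changed at an adjusted p below 0.05 with a log2 difference beyond 1. By these limits 2 of the 4 member genes tested, Calcb and Tac1, were changed, both of them lower, against 15.9% of the 13509 genes tested that were changed. The 3 libraries of a side are parts of 1 lysate, so these p-values measure the spread between preparations and not between animals. The column names and the identifier lines of the pools pair the sides in opposite ways, and with the identifiers every sign of the pooled comparison would turn. Atf3, a transcription factor induced by axotomy, had a mean of 1549 CPM in the libraries named SNT and 12.7 CPM in those named control, and in single cells of day 3 it exceeded every control-side cell in 30 of 41 SNT-side cells, so it runs in the direction of the column names.

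Calca was read at 827, 775 and 931 CPM (scaled by TMM factors) in the SNT libraries and at 1677, 1316 and 1571 CPM in the control libraries. The sides did not overlap, which was also so for neuronal markers not counted as changed, such as Snap25 and Isl1. The share of all genes without overlap was not counted. The log2 difference was -0.85 (SE 0.12, adjusted p = 5.8e-07 by edgeR), which passed the limit on p and fell short of the limit on size. When libraries were scaled by their totals alone it was -1.01 and past both limits, while the median of all genes moved from 0.02 to -0.14 and the split of changed genes from 1193 higher and 961 lower to 978 higher and 1265 lower.

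Calcb was read at 56.2, 59.9 and 59.6 CPM in the SNT libraries and at 258, 274 and 302 CPM in the control libraries. The 3 values of each side lay close together. The log2 difference was -2.24 (SE 0.17, adjusted p = 1.2e-13 by edgeR). Divided by the length of the longest transcript of each gene, the level of Calca was 5.29 times that of Calcb in the control pool and 13.95 times in the SNT pool.

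Tac1 had 36, 21 and 25 counts in the control libraries, a mean of 37.5 ± 12.1 CPM (SD, n = 3). The SNT libraries held 0, 0 and 1 count, a mean of 0.177 CPM. The ratio of counts per total was 186-fold higher on the control side, with a counting interval of 32.4 to 7427. The fitted log2 difference was -6.83 (SE 0.71, adjusted p = 4.3e-10 by edgeR). It was -8.20 without SNT library 3, which held the single count, and -6.35 without SNT library 1, so the size of the fitted difference is loosely set while its direction was the same with any single library left out.

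The receptor genes were close to the floor in the pools. Calcrl had 5, 0 and 1 counts in the SNT libraries and 5, 0 and 0 in the control libraries, and its log2 difference of -0.73 (SE 1.30, adjusted p = 0.74 by edgeR) did not pass the test. Ramp1 had 1 count on the SNT side and none on the control side, where 0 counts allow a level of up to 1.41 CPM, and was not tested. For Calcrl the ratio of counts per total, SNT over control, was 0.53 with a counting interval of 0.135 to 2.19.

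**Figure D1:**
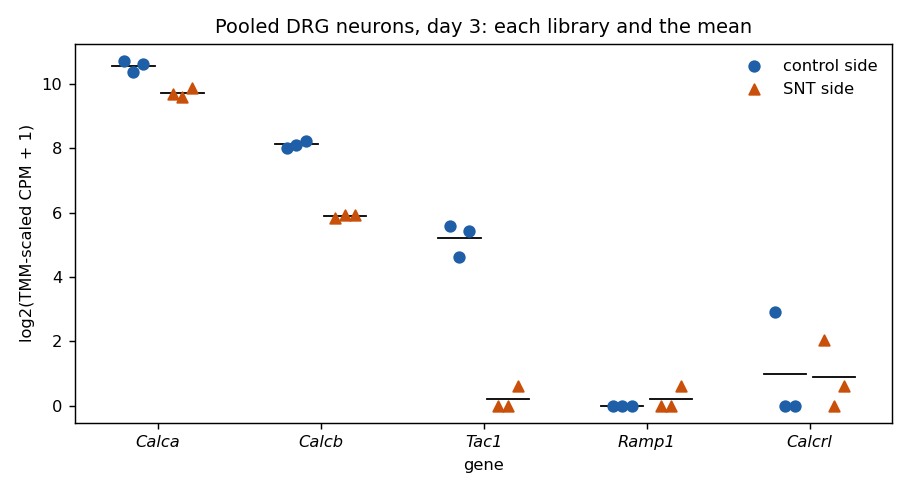
Level of the 5 genes in each pooled library at day 3, as log2 of TMM-scaled CPM + 1, with circles for the control side, triangles for the SNT side and lines for the means on this scale. Calca, Calcb and Tac1 have lower means on the SNT side, and Ramp1 and Calcrl are at or near 0 in most libraries.

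Pools differed in more than these genes, and a lower level in a pool cannot be told apart from a smaller share of neurons that make the transcript. Atf3 was higher on the SNT side by 6.86 (log2) and P2rx3, the purinergic receptor of nonpeptidergic nociceptors (NP), was lower by 1.23. The 6 NP markers summed to 519 to 572 CPM in the SNT libraries and 2954 to 3064 CPM in the control libraries. The 4 peptidergic (PEP) markers beside the members moved the other way, with sums of 1052 to 1165 against 392 to 427 CPM. Within that list Trpv1, the capsaicin receptor, was lower by 3.04 and Adcyap1, a peptide induced by axotomy, was higher by 5.59. The 8 glial markers summed to 6098 to 6895 CPM against 12445 to 15094 CPM. The part of these differences in the results for CGRP and substance P was not tested.

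At day 3 the peptide genes were lower on the SNT side in single neurons too, at levels that were uneven from cell to cell. The log2 ratio of mean CPM + 1, SNT over control side, was beyond 1, and each time lower, for Calca, Calcb and Tac1, against 11.9% of the 9736 genes whose mean reached 10 CPM in one of the groups and whose ratio was beyond 1 in either direction. Calcrl, at -1.83, passed that filter through the control side alone and was at -0.75 with a pseudocount of 10 CPM and at -0.95 with medians.

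On the SNT side Calca was detected in 32 of 41 cells (78.0%, exact 95% interval 62.4 to 89.4), and on the control side in 15 of 18 (83.3%, 58.6 to 96.4). These intervals cover counting error only. The lowest, median and highest values were 0, 163 and 20041 CPM in SNT-side cells, as against 0, 1829 and 18006 CPM in control-side cells. The shares of cells with the transcript were thus close while the middle of the distribution lay lower on the SNT side, where 30 of 41 cells were below the control median. The means were 1796 ± 3789 and 4942 ± 5998 CPM (SD over cells), and their log2 ratio was -1.46.

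Calcb differed in the share of cells as well as in the level. On the SNT side 16 of 41 cells held it (39.02%, 24.2 to 55.5), and on the control side 17 of 18 (94.4%, 72.7 to 99.9). SNT-side values ran from 0 through a median of 6.32 to 1501 CPM, control-side values from 2.78 through 509 to 1196 CPM. Of the SNT-side cells 9 had no read of Calcb, 15 were below every control-side cell and 38 were below the control median. The means were 141 ± 295 and 464 ± 319 CPM, a log2 ratio of -1.71. With medians in place of means the ratio was -6.12.

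Of the SNT-side cells 6 of 41 held Tac1 (14.6%, 5.57 to 29.2), and of the control-side cells 12 of 18 (66.7%, 40.99 to 86.7). The highest value was 819 CPM on the SNT side, reached by 1 cell, with the next at 113 CPM, while control-side cells reached 1696 CPM around a median of 28.6 CPM. The means were 31.3 ± 129 and 249 ± 462 CPM, a log2 ratio of -2.95, and -3.71 without the highest cell of each side.

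The SNT-side cell with 819 CPM of Tac1 also held the highest Calca and Calcb of its group, at 20041 and 1501 CPM. It was below 10 CPM for P2rx3 and had 0.65 CPM of Atf3, the lowest of the 41 cells.

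Calcrl, the receptor chain that binds the ligand, was seldom detected, in 1 of 41 cells of the SNT side and 6 of 18 of the control side. Its highest values were 36.1 and 76.6 CPM. Means were 2.29 ± 5.95 and 10.7 ± 19.4 CPM. Ramp1 was above 10 CPM in no cell. It had a value above 0 in 5 SNT-side cells, up to 6.18 CPM, and in no control-side cell. With 0 of 41 and 0 of 18 cells, shares of up to 7.317% and 16.7% with detectable Ramp1 are allowed.

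**Figure D2:**
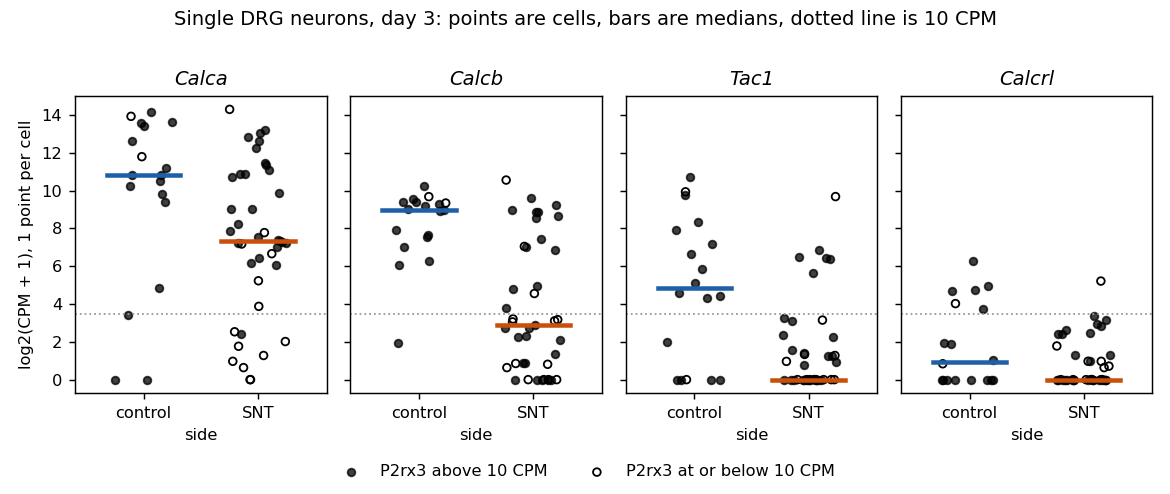
Calca, Calcb, Tac1 and Calcrl in single neurons at day 3, as log2(CPM + 1) with 1 point per cell, for 18 control-side and 41 SNT-side cells. Bars are medians, the dotted line is 10 CPM, and filled points have P2rx3 above 10 CPM. Most control-side cells lie above the line for Calcb and most SNT-side cells below it, while for Calca most cells of both sides lie above it.

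P2rx3 above 10 CPM marks neurons with the receptor of nonpeptidergic nociceptors, and 27 SNT-side and 16 control-side cells met this limit at day 3. Within them Calca was detected in 26 of 27 and 13 of 16 cells, so most cells picked out by this receptor also held Calca transcript. By means Calca, Calcb and Tac1 were lower by more than 1 (log2) on the SNT side, against 11.6% of 9726 genes beyond 1 in either direction. For Calca this held by means but not by the mean of log2(CPM + 1), which differed by -0.15, and with outlier cells included the ratio was -0.94. Calcrl reached a mean of 10 CPM on the control side alone, and its ratio of -2.03 became -0.62 with medians, -0.87 with the mean of log2(CPM + 1) and -0.82 with a pseudocount of 10 CPM. Calca had medians of 521 and 1641 CPM and means of 1966 ± 2776 and 4368 ± 5728 CPM, a log2 ratio of -1.15. SNT-side values, from 4.25 to 9267 CPM, lay within the control-side range of 0 to 18006 CPM. The highest control-side values, 18006, 12440, 12085 and 10704 CPM, were in cells with only 74.0, 130, 13.8 and 60.6 CPM of P2rx3. The median of P2rx3 in the control-side cells of this set was 849 CPM. On the SNT side the highest values, 9267 and 8579 CPM, were in cells with 29.7 and 249 CPM of P2rx3. The control-side mean of Calca thus rests largely on cells low in P2rx3.

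Calcb in P2rx3-positive cells was detected in 13 of 27 SNT-side and 15 of 16 control-side cells, with medians of 6.32 and 493 CPM and a log2 ratio of means of -1.49. Of the 27 SNT-side cells 8 were below every control-side cell. Tac1 was detected in 5 of 27 and 11 of 16 cells, with means of 16.8 ± 34.1 and 220 ± 450 CPM and a log2 ratio of -3.63. Its highest control-side values, 1696 and 855 CPM, were in cells with 74.0 and 60.6 CPM of P2rx3. Calcrl exceeded 10 CPM in 0 of 27 and 5 of 16 cells, and 0 of 27 allows a share of up to 11.1%. P2rx3 itself had means of 1351 and 903 CPM in these cells.

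Cells at or below 10 CPM of P2rx3 were too few for a comparison, with 14 on the SNT side and 2 on the control side. Both control-side cells held Calca (3538 and 15527 CPM) and Calcb (646 and 816 CPM). Of the 14 SNT-side cells 6 held Calca and 3 held Calcb above 10 CPM.

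The SNT-side cells of day 3 fell into 2 ranges of Atf3 with none between 23.04 and 951 CPM, 11 cells within the range of the control side and 30 above it. Calcb was above 100 CPM in 10 of the 11 and in 2 of the 30, and Calca was above 1000 CPM in 10 of the 11 and in 2 of the 30. For comparison, 15 of 18 control-side cells exceeded 100 CPM of Calcb and 12 of 18 exceeded 1000 CPM of Calca. In the 30 cells high in Atf3, Calca was still detected in 22 with a median of 137 CPM, whereas Calcb was detected in 6 with a median of 3.5 CPM and Tac1 in 1. Among the 17 of these that were also P2rx3-positive, all held Calca, from 65.8 to 9267 CPM, and 4 held Calcb. Whether a cell's axon ran in the cut nerve is not recorded, and Atf3 values are given as a measured level of each cell.

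**Figure D3:**
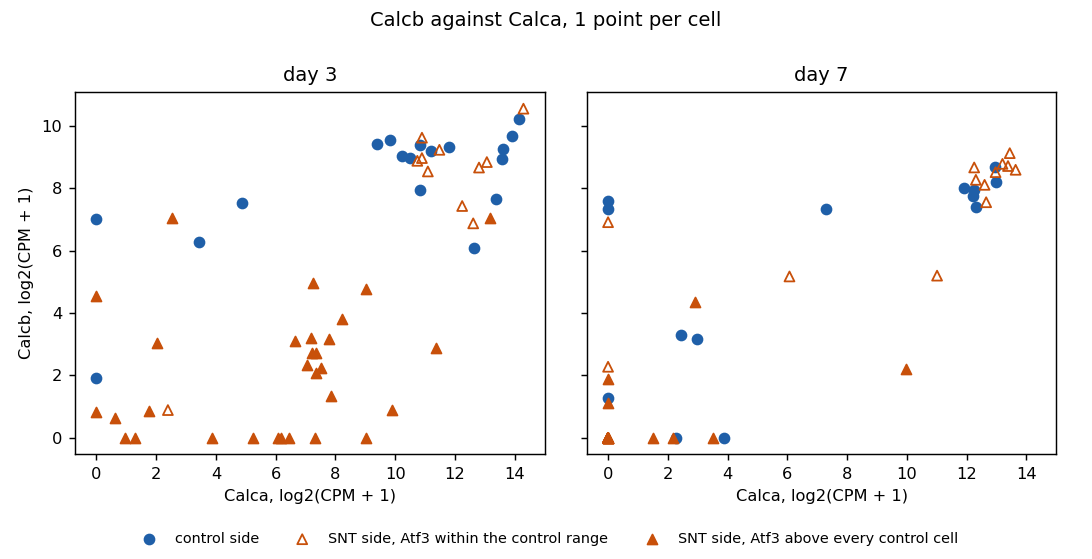
Calcb against Calca in each kept cell, both as log2(CPM + 1), at day 3 (left) and day 7 (right). Circles are control-side cells, open triangles SNT-side cells with Atf3 within the control range and filled triangles SNT-side cells with Atf3 above every control-side cell. At day 3 most open triangles lie with the circles at the upper right, and the filled triangles spread along Calca at low Calcb.

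At day 7 the log2 ratios of means were -0.07 for Calca, -0.48 for Calcb and 0.06 for Calcrl, and only Tac1 was beyond 1, and higher. Among the 9622 genes whose mean reached 10 CPM in one of the groups, 7.66% were beyond 1 in either direction. Tac1 passed that filter through the SNT side alone (means of 47.6 and 1.52 CPM), which favours a high ratio. Calcrl, with means of 2.53 and 2.39 CPM, did not pass it. The means of log2(CPM + 1) differed by -2.02 for Calca and -2.37 for Calcb at day 7, compared with -2.34 and -4.46 at day 3. The difference between the days was not tested. Fewer cells expressed any of the peptides, since 18 of 33 cells of the SNT side and 4 of 14 of the control side held none of Calca, Calcb and Tac1, compared with 7 of 41 and 1 of 18 at day 3. Markers of large myelinated neurons (LM) had medians of 3356 and 3869 CPM over 6 genes in the day-7 cells of the 2 sides, and 359 and 274 CPM in those of day 3.

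Calca at day 7 was split into cells with high and cells with little or no transcript. It was detected in 13 of 33 cells of the SNT side (39.4%, 22.9 to 57.9) and in 8 of 14 of the control side (57.1%, 28.9 to 82.3). The lowest, median and highest values were 0, 0 and 12775 CPM in SNT-side cells, as against 0, 84.4 and 8137 CPM in control-side cells. Above 1000 CPM there were 10 and 6 cells. The means were 2359 ± 3979 and 2482 ± 3146 CPM, and the spread over cells was larger than the difference.

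The Calca ratio at day 7 differed between cells labelled female and male. In cells labelled female the means were 624 ± 1701 CPM (16 SNT-side cells) and 3014 ± 3875 CPM (7 control-side cells), a log2 ratio of -2.27. In cells labelled male they were 3992 ± 4807 CPM (17 cells) and 1950 ± 2402 CPM (7 cells), a log2 ratio of 1.03. P2rx3-positive cells were 2 of the 16 and 8 of the 17 SNT-side cells, and 4 of the 7 control-side cells of either label. Within these few P2rx3-positive cells the Calca ratio was 0.59 in those labelled female and 0.74 in those labelled male. The number of animals of each sex is not given, so sex and animal cannot be told apart, and the difference between the sexes was not tested.

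Calcb at day 7 was detected in 13 of 33 and 9 of 14 cells, with medians of 1.17 and 165 CPM and means of 108 ± 174 and 151 ± 130 CPM. The ratio was -1.498 (log2) in cells labelled female and 0.09 in cells labelled male, and within P2rx3-positive cells it was 1.11 and 0.10. Tac1 was detected in 3 of 33 and 1 of 14 cells. The 3 SNT-side cells held 576, 929 and 46.4 CPM and the control-side cell 21.2 CPM, so the log2 ratio of 4.27 rests on 3 cells. All 3 also held Calca (4884, 10703 and 9417 CPM) and Calcb (406, 419 and 439 CPM). Calcrl was detected in 2 of 33 and 1 of 14 cells, with a highest value of 34.4 CPM. Ramp1 was above 0 in 1 SNT-side cell, at 4.98 CPM, and above 10 CPM in none, which allows shares of up to 9.09% of the 33 and 21.4% of the 14 cells.

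**Figure D4:**
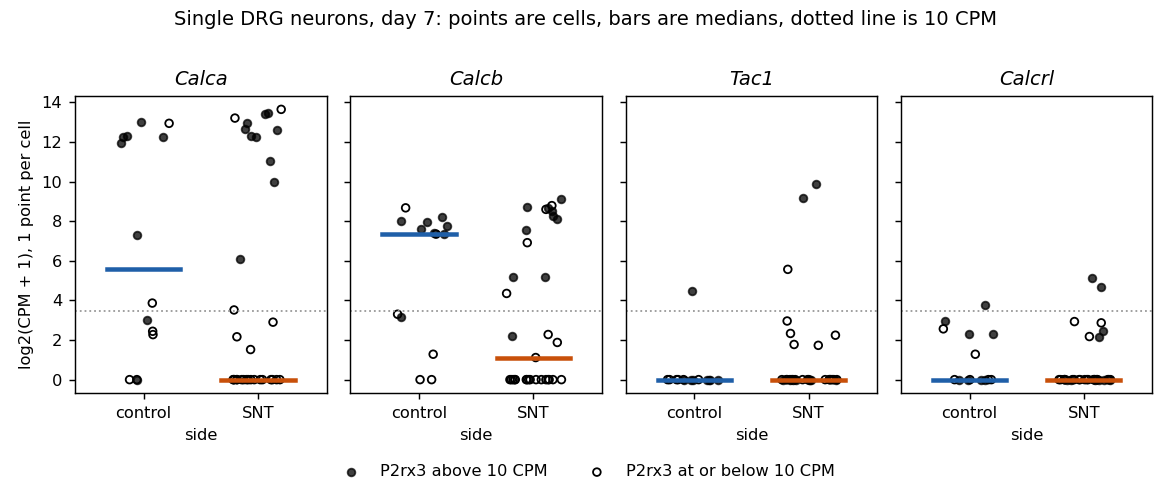
Calca, Calcb, Tac1 and Calcrl in single neurons at day 7, as log2(CPM + 1) with 1 point per cell, for 14 control-side and 33 SNT-side cells. Bars are medians, the dotted line is 10 CPM, and filled points have P2rx3 above 10 CPM. On both sides Calca is either at 998 CPM and above or at 155 CPM and below, and the SNT-side cells with high Calca are mostly P2rx3-positive.

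P2rx3-positive cells numbered 10 on the SNT side and 8 on the control side at day 7. Calca was detected in 10 of 10 and 6 of 8 of them, with medians of 5648 and 4327 CPM and means of 5563 ± 3784 and 3361 ± 3003 CPM. Calcb was detected in 9 of 10 and 7 of 8, with means of 259 ± 189 and 192 ± 87.1 CPM. Neither difference was larger than the spread over cells, and both ratios (0.73 and 0.43, log2) were positive where those of day 3 were negative. With P2rx3-positive set at 1 CPM, for 22 and 11 cells, the ratios were -0.09 and -0.30. Tac1 was the only gene of the 4 beyond 1, at 5.37 from 2 of 10 and 1 of 8 cells, against 10.1% of 9647 genes beyond 1 in either direction. Of the 10 SNT-side cells 9 had Atf3 within the control range. The tenth held 998 CPM of Calca and 3.64 CPM of Calcb.

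**Figure D5:**
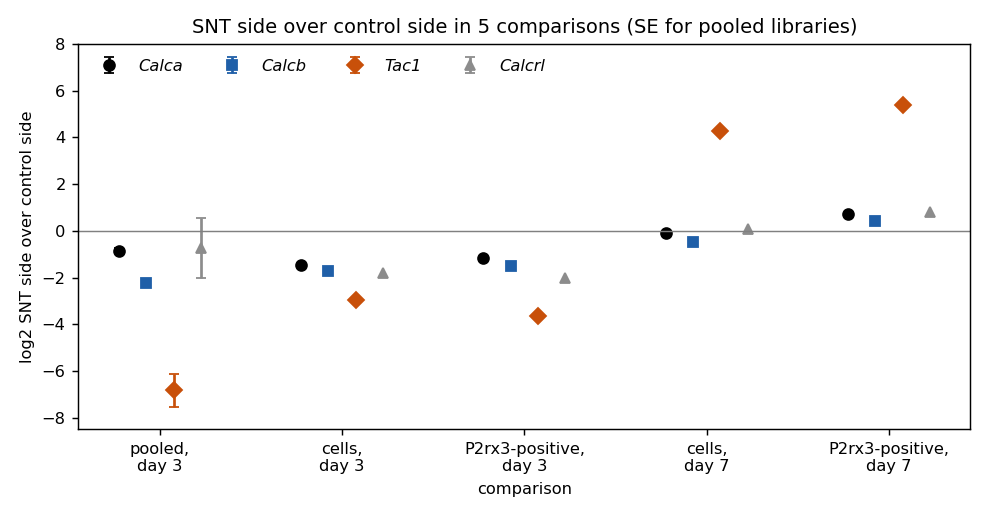
Log2 of SNT side over control side for Calca, Calcb, Tac1 and Calcrl in the 5 comparisons. Pooled values are fitted differences with their SE, which is within the symbol for Calca and Calcb, and values for cells are ratios of mean CPM + 1 with no error. All 4 genes are below 0 in the 3 comparisons of day 3, and Tac1, from a few cells, is above 4 in both of day 7.

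Across the 4 groups of cells the mean level of Calca ran in the order control day 3, control day 7, SNT day 7 and SNT day 3 (4942, 2482, 2359 and 1796 CPM), and no step between neighbours exceeded the SD over cells. For Calcb the order was control day 3, control day 7, SNT day 3 and SNT day 7 (464, 151, 141 and 108 CPM), and the first step of that order was close to the SD of the highest group. Tac1 ran from 249 CPM in control cells of day 3 to 1.52 CPM in control cells of day 7, and Calcrl from 10.7 to 2.29 CPM, again within the SD. Per kilobase of the longest transcript the mean level of Calca was 10.3 to 21.1 times that of Calcb in the 4 groups.

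Detection of the genes was compared cell by cell. At day 3 all 15 control-side cells with Calca also had Calcb, and 14 of 32 SNT-side cells with Calca did. On the SNT side 14 of the 16 cells with Calcb had Calca. Calca was also found in each of the 6 cells with Tac1 on the SNT side and in 10 of the 12 on the control side. Each of the 10 cells of both days in which the receptor chain Calcrl exceeded 10 CPM also had both Calca and Calcb above 10 CPM.

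The genes whose pattern was closest to each member were sought over the 106 kept cells among 10562 genes, by Pearson's r of log2(CPM + 1) after centring within side and day. Each cell is a library of its own, cells differ in depth, and r is given as a description. For Calca they included Oprm1 (0.90), the mu opioid receptor, Scn10a (0.89), a nociceptor sodium channel, Cacna1c (0.86), an L-type calcium channel subunit, and Capn5 (0.84). For Calcb they were Spock3 (0.77), Nmb (0.77), which encodes neuromedin B, Pirt (0.76), a regulator of TRP channels, Scn10a (0.76) and Nedd4l (0.76), a ubiquitin ligase.

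For Tac1 the closest genes were Trpv1 (0.64), Pde11a (0.51), a phosphodiesterase, Aqp1 (0.51), a water channel, Dusp3 (0.48) and Fam89a (0.48). For Calcrl they were Chrna7 (0.67), a nicotinic receptor subunit, Kcnv1 (0.66) and Pear1 (0.66). Calcrl itself was above 10 CPM in 1 of 41 SNT-side and 6 of 18 control-side cells at day 3. At day 7 these were 2 of 33 and 1 of 14 cells. The ranked genes had to be above 10 CPM in at least 20 kept cells, a limit that Calcrl did not meet. Its r values thus rest on few cells. Ramp1 was above 0 in 6 cells, and its highest value (0.31, Zfp160) followed from so few reads, with Ctnnd1 (0.30) and Mpv17l (0.28) next. Between members r was 0.75 for Calca with Calcb, 0.53 for Calca with Calcrl, 0.33 for Calca with Tac1 and 0.35 for Calcb with Tac1.

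Other members of the calcitonin and tachykinin families were mostly absent. Of 12 listed genes 3 could be tested in the pools and none was changed, against 15.9% of all genes changed, with a median log2 difference of 0.69 beside 0.02 for all genes. These were Adm, which encodes adrenomedullin (2.25, SE 1.45, adjusted p = 0.28), Ramp2, which pairs with CALCRL to bind adrenomedullin (0.46, SE 0.47, adjusted p = 0.54), and Crcp, a protein that couples CGRP receptors to their signal (0.69, SE 0.21, adjusted p = 0.011), all by edgeR. Crcp was past the p limit alone, and as the middle value of the 3 it is also their median. Adm rests on 12 counts on the SNT side and 1 on the control side. So few genes cannot be set apart from the share over all genes. Tacr1, the receptor of substance P, was read at no more than 0.432 CPM on average in either pool.

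Genes that process, store and release peptides numbered 16 and were all tested in the pools. Of these 3 were higher and 1 was lower on the SNT side, against the 15.9% of all genes that changed, with a median of 0.09. Among the higher were Vgf, a granin-like vesicle protein (2.19, SE 0.21, adjusted p = 4.2e-11 by edgeR), and Ptprn, a vesicle membrane protein (1.96, SE 0.18, adjusted p = 3.6e-11 by edgeR). Scg3, a secretogranin, was lower (-1.73, SE 0.14, adjusted p = 2.7e-13 by edgeR). In cells of day 3, 3 of the 15 genes with enough reads were lower by more than 1 and none was higher, against 11.9% of all genes, and the median was -0.38 beside -0.05 for all genes. Scg3 was among the lower (-1.05), while Vgf (0.89) and Ptprn (0.40) were positive.

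Of 7 peptide-degrading enzymes 6 were tested in the pools and 1 was lower, against 15.9% of all genes changed, with a median of -0.13. This was Mme, neprilysin, which cleaves substance P (-3.14, SE 0.47, adjusted p = 1.3e-06 by edgeR). In cells of day 3 it was detected in 6 of 41 and 2 of 18 cells, with a log2 ratio of 0.44. Its means in these cells were 6.34 ± 15.1 and 4.40 ± 11.2 CPM (SD over cells), below the mean of 10 CPM required for the comparison over all genes. The sign in cells was opposite to that in the pools but is loosely set at this level.

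Of 20 genes for signals behind the receptors, all tested, 4 were higher and 6 lower on the SNT side of the pools, against 15.9% of all genes changed, with a median of 0.26. The adenylyl cyclases Adcy2 (2.80, SE 0.60, adjusted p = 4.0e-04 by edgeR) and Adcy3 (2.16, SE 0.62, adjusted p = 0.0083 by edgeR) were higher. Lower were Adrbk2, a receptor kinase (-2.76, SE 0.62, adjusted p = 7.4e-04 by edgeR), and Plcb3, a phospholipase C (-2.54, SE 0.15, adjusted p = 4.5e-17 by edgeR). In cells of day 3, 1 of 18 genes with enough reads was higher and 7 were lower by more than 1, against 11.9% of all genes, with a median of -0.42. Adrbk2 (-2.47), Plcb3 (-1.37) and Adcy3 (1.53) had the same sign as in the pools, and Adcy2 was at -0.06.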

How the data were processed

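Expression tables of 117 single DRG neurons and 6 libraries of pooled neurons were used. The authors aligned reads (50 bp at day 3, 75 bp at day 7) with Bowtie2 and estimated expression with RSEM on the mm9 build, with CASAVA 1.8.2 named in the submitters' processing notes. The deposited tables are called TPM but hold expected counts, since by library 60.7% to 93.6% of nonzero entries are exact whole numbers and totals run from 223967 to 2003817. CPM is the value over the column sum. The authors' table without 11 outlier cells defined the kept cells.

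Pooled counts were rounded and tested with edgeR 4.0.16 (R 4.3.3, limma 3.58.1, DESeq2 1.42.0 as alternatives) in genes of at least 1 CPM on average, with TMM factors. Ratios of cells are log2 of mean CPM + 1, and intervals are exact Clopper-Pearson with Python 3.11.15 and scipy 1.17.1. Limits for a share of 0 use 3 cells or counts. Amplified copies are counted without molecular identifiers, so intervals and limits cover counting error only. Scripts were tested on simulated data.

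The members and gene lists were chosen with earlier results of these data known. Named genes are the members, P2rx3 and Atf3, each family gene tested, from each other list the 2 largest rises and falls past both limits, the closest genes by r, and markers that moved with a result. One gene that the rule names is not reported here. Sides of the pools follow the column names, although the identifier line pairs them the other way and the source label of all 6 names intact neurons. The level of Atf3 runs in the direction of the column names. The label gives 106 neurons per pool and the methods give another number. Day-7 cells were placed by title, since their protocol label names both days. Libraries of the same number did not deviate together (r = 0.13, 0.01 and -0.02), so no pairing was used. No gene coordinates are given, because the build of the files was not at hand, and the promoters carry their own.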

Additional observations from a re-analysis of the deposited data

Results flagged for a closer look

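Ramp1 was above every kept control-side cell, all of which were at 0, in 3 of the 11 cells that the authors removed as outliers. The highest of them was an SNT-side cell of day 3 at 2.34 CPM, a level below the limit of 10 CPM used for detection.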

How the results depend on the processing

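Of the 204 values recomputed under another setting for the tested or described results, 192 kept their direction and their side of the limits or moved by less than the spread over cells, 11 moved further and 1 passed a limit it had missed. That one was Calca in the pools, at -1.01 (log2) with library totals alone. With medians in place of means the ratio was -6.42 for Calca and -6.26 for Calcb at day 7, -6.12 for Calcb at day 3, -6.08 for Calcb in P2rx3-positive cells of day 3, 0 for Tac1 at day 7 in all and in P2rx3-positive cells, and -1.57 for Calcrl in P2rx3-positive cells of day 7. With means of log2(CPM + 1) Tac1 at day 7 was at 0.76 in all and 1.34 in P2rx3-positive cells. In cells labelled female Calcrl was at -1.71 at day 7 and -2.22 in P2rx3-positive cells, the latter chosen after the data were seen. The cause was not tested. The spread over cells is wide, so a ratio could change sign or size and still not count as moved further. Calca at day 7 did so, from -0.07 over all cells to -2.27 in cells labelled female and 1.03 in those labelled male. The count of 192 is therefore a weak measure of how stable the ratios of cells are. Shares of cells moved beyond their interval in 13 of 60 recomputed values, all with another limit of detection or with cells thinned to 200000 counts.

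In the pools the count of changed genes was 2154, and 1884 to 2148 without 1 library, 2147 with RLE factors, 1771 with DESeq2, 2061 with limma, 2163 without a filter, 1649 at 10 CPM or more and 1834 with libraries thinned to equal totals. Without 1 library the log2 difference was -0.95 to -0.77 for Calca, -2.30 to -2.18 for Calcb, -8.20 to -6.35 for Tac1 and -2.38 to -0.29 for Calcrl. Calcrl could not be fitted without control library 1 or at 10 CPM or more. With the library number as a replicate block 2008 genes were changed, with -0.85 for Calca, -2.24 for Calcb, -6.92 for Tac1 and -0.53 for Calcrl, and no call on a member changed.

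Depth limits the receptor genes most, since 11 counts of Calcrl and 1 of Ramp1 were read in all 6 pooled libraries. Single cells have no animal behind their spread, and over all cells the day-7 ratios of Calca and Calcb change sign between cells labelled female and male. In P2rx3-positive cells they do not (Calca 0.59 and 0.74, Calcb 1.11 and 0.10). These last ratios rest on 2 SNT-side and 4 control-side cells labelled female, and on 8 and 4 labelled male.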
